A study of Mus musculus with 12 samples.

Results

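The response of mouse Kupffer cells to interleukin-4 (IL-4) was measured by setting the 2 arrays of IL-4-treated cells against the 2 arrays of untreated cells, called M0 in the labels. These are 4 of the 12 arrays of the series. A probe was included if at least 2 of the 4 arrays detected it at p under 0.05. Of the 25697 probes on the array 11930 met this, and they covered 8349 genes with a symbol. Kupffer cells are the macrophages that live in the liver sinusoids. Here they were primary cells from 8-week-old male C57BL/6 mice, obtained by collagenase perfusion of the liver and Percoll density separation and then cultured. The labels describe no genetic change and no sorting step. IL-4 was given at 20 ng/ml for 24 h, and the labels call the result M2. The third group in the fit, LPS, received bacterial lipopolysaccharide at 10 ng/ml for 24 h, called M1. No time in culture is given for M0, so time in culture and treatment cannot be told apart. The vehicle, SR3335 and SR1078 groups entered only the alternative with all 12 arrays. The labels do not state if replicate arrays stand for different animals or culture dishes. The p-values therefore measure the spread between these arrays, which may be technical.

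IL-4 is the cytokine that defines alternative, or type 2, activation of macrophages. It binds a receptor made of the IL-4 receptor alpha chain with the common gamma chain or the IL-13 receptor alpha 1 chain. The receptor activates JAK kinases, which phosphorylate the transcription factor STAT6. In mouse macrophages the pathway is known for inducing arginase, chitinase-like and resistin-like proteins, lectin receptors and chemokines that attract eosinophils. In the liver it is studied in helminth infection, tissue repair and fibrosis.

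Between 11550 and 11806 probes were detected on each of the 4 arrays, and the median bead signal was 184 to 191. The 2 arrays of a group correlated at 0.994 for M0, 0.994 for LPS and 0.990 for IL-4 over all members, and the SD between replicates was 0.17 for M0 and 0.24 for IL-4 on the log2 scale. The number of arrays limits the precision. Levels below are normalized log2 intensities, and differences are IL-4 minus M0 on that scale, with n = 2 arrays per group, unless another comparison is named. A gene was called where limma's moderated test gave an adjusted p under 0.05 over all 11930 probes. Low levels are compressed by background and offset, so the fold of a dim gene is understated.

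The labels were first checked against markers. Retnla, which encodes the secreted resistin-like molecule alpha, was at 6.03 and 6.36 on the M0 arrays and 13.18 and 12.81 on the IL-4 arrays, a difference of 6.80 (SE 0.28, adjusted p = 0.00067). Ccl24, the eosinophil-attracting chemokine eotaxin-2, was at 8.82 and 9.17 on the M0 arrays and 13.12 and 12.85 on the IL-4 arrays, a difference of 3.99 (SE 0.16, adjusted p = 0.000627). Chil3, which encodes the chitinase-like protein Ym1, was at 6.68 and 6.44 on the M0 arrays and 9.97 and 9.71 on the IL-4 arrays, a difference of 3.28 (SE 0.18, adjusted p = 0.00233). Both IL-4 arrays lay far above both M0 arrays for all 3 genes. Of 23 Kupffer cell and macrophage markers on the array, 20 or 21 were detected on each of the 4 arrays, among them Adgre1, Clec4f, Vsig4 and Timd4. Cd5l and Clec2h were undetected on all 4. Their summed level, on the linear scale over the 21 tested markers, was 310304 and 313931 in M0 and 309099 and 299056 with IL-4.

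Markers of other liver cells were detected in part, and the source of their signal was not tested. Of 19 markers of sinusoidal endothelium, 16 or 17 were detected on each array. Of 16 T and NK cell markers, 10 were detected on each array, while Cd4, Cd8a, Ncr1, Gzma and Gzmb were undetected on all 4. Of 16 hepatocyte markers, 8 to 10 were detected on each array, while 6 were undetected on all 4, among them Alb, Cps1 and Cyp2e1. Of 15 stellate cell and fibroblast markers, 3 to 5 were detected on each array. Undetected on all 4 were 10 of them, including Col1a1, Col3a1, Lrat and Pdgfrb. Of 20 eosinophil, basophil and mast cell markers, 15 were undetected on all 4 arrays, including Mcpt8 and Ms4a2. The dendritic cell markers Flt3, Zbtb46, Xcr1 and Clec9a were also undetected on all 4. In these bulk samples, fewer cells of a type and less RNA per cell cannot be told apart.

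Between IL-4 and M0, 970 of 11930 probes were called, which is 8.13%. With IL-4, 462 probes were higher (3.87%) and 508 lower (4.26%). Called changes of at least 2-fold were made up of 156 higher probes (1.31%) and 113 lower probes (0.947%). The groups did not overlap for all 970 called probes, but the same held for 6974 of all probes (58.5%), so separation of 2 arrays from 2 is common here. An unadjusted p under 0.05 was reached by 3371 probes (28.3%). By gene, 695 of 8349 were called (8.32%), of which 304 were higher (3.64%) and 391 lower (4.68%). Called changes of at least 2-fold were found for 104 higher genes (1.25%) and 81 lower genes (0.97%). The groups did not overlap for 59.8% of all genes, and 28.4% had an unadjusted p under 0.05.

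The rises had the longer tail. Of the 304 higher genes, 80 rose by 1 to 2 on the log2 scale, 16 by 2 to 3 and 8 by more than 3. Of the 391 lower genes, 80 fell by 1 to 2, 1 fell by more than 2 and 0 by more than 3. The median difference was 0.82 among called rises, -0.72 among called falls and -0.04 over all genes. The smallest called difference was 0.42 on the log2 scale, and the median SE was 0.13.

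**Figure D1:**
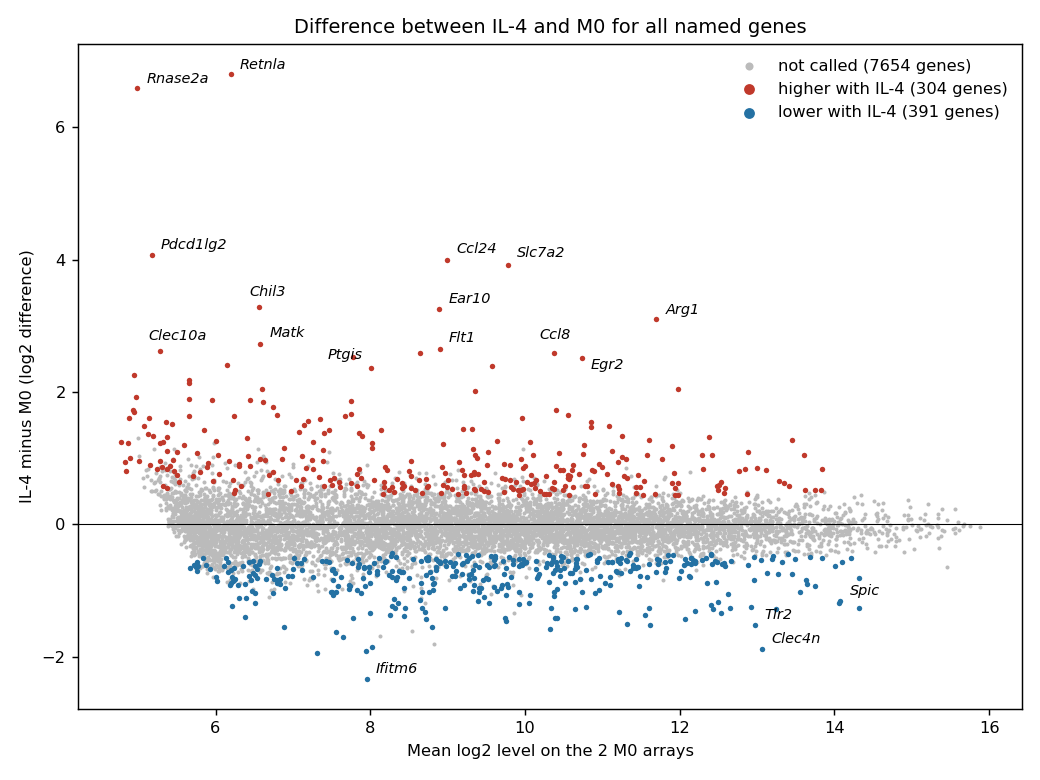
Each point is 1 of 8349 genes, with its mean log2 level on the 2 M0 arrays on the x axis and IL-4 minus M0 (log2) on the y axis. The 304 genes called higher reach 6.80 (Retnla), and the 391 called lower reach -2.33 (Ifitm6).

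Calls depended on single arrays, most of all on those of M0. Without M0 replicate 1, 18 probes were called and all were higher, and without M0 replicate 2, 22 were called, of which 21 were higher. Without LPS replicate 1 or 2 there were 347 and 348 calls, without IL-4 replicate 1 there were 291, and without IL-4 replicate 2 there were 1540. Of the 122 called genes reached by the naming rule, 13 were called in each of the 6 fits that left out 1 array and in every other alternative. These were Arg1, Ccl24, Ccl8, Chil3, Clec10a, Ear10, Egr2, Flt1, Matk, Ptgis, Retnla, Rnase2a and Slc7a2. The alternative limited to probes detected on all 4 arrays did not test Rnase2a and Clec10a, which neither M0 array detected. The other 109 lost their call both without M0 replicate 1 and without M0 replicate 2. All 122 kept their sign in every alternative, and with an array left out none of their differences moved by more than 1.5 times. Without background correction, 36 of the 122 had a difference that was smaller by more than 1.5 times. That of Chil3 was then 2.14, Matk 1.68, Mgl2 1.27, Plekhf1 0.94, Cd163 0.77, Pgf 0.63 and Ifitm6 -1.02. Azin1, Ifih1 and Ptges lost their call under that setting.

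Detection also shaped the calls. Among the 10596 probes detected on all 4 arrays, 389 were higher and 443 lower, together 7.85%. A further 193 probes were detected on both IL-4 arrays and on neither M0 array, of which 58 were called higher. In the opposite class, 152 probes were detected on both M0 arrays and on neither IL-4 array, of which 47 were called lower. A probe of either class passed the detection filter only through the group in which it was high. Its call and adjusted p therefore depend in part on that filter. Folds given as "at least" for such probes hold only for the background correction used. Just inside the filter, 693 probes were detected on exactly 2 arrays, and just outside it 1063 were detected on 1.

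Secreted type 2 proteins had the highest median difference of the gene lists examined. Of 18 such genes 15 were on the array, but only 6 passed the detection filter, so the median covers only these. Of the 6, 4 rose (66.7%, against 3.64% of all genes) and 0 fell, with a median difference of 3.27. Besides Retnla and Chil3, these were a pair of genes of the eosinophil-associated ribonuclease family, Rnase2a and Ear10. Rnase2a was at 4.89 and 5.09 on the M0 arrays and 11.78 and 11.39 on the IL-4 arrays. It was undetected on both M0 arrays and passed the filter only through the IL-4 arrays. Against the detection limit, the background-corrected IL-4 level was at least 60.7-fold higher (adjusted p = 0.000272). Without background correction its log2 difference was 4.27, so this bound holds only for the correction used. Ear10 was detected on all 4 arrays, at 9.00 and 8.78 on the M0 arrays and 12.13 and 12.17 on the IL-4 arrays, a difference of 3.26 (SE 0.11, adjusted p = 0.000616). Ribonuclease genes of this family are near-identical in sequence, as are Chil3 and its neighbour Chil4, so which copy a probe read is uncertain. Both other tested probes of Chil3 rose, 1 by 2.22, and 1, undetected on both M0 arrays, by at least 2.04-fold. Il1rn, the interleukin-1 receptor antagonist, at 0.23 (adjusted p = 0.237), and Tgfbi, a matrix protein induced by TGF-beta, at -0.18 (adjusted p = 0.248), were not called. Members of this ribonuclease family and Ccl24 are also known from eosinophils. Of 20 eosinophil, basophil and mast cell markers, 15 were undetected on all 4 arrays, Epx, Siglecf, Ccr3 and Il5ra among them, and the part of such cells in these rises was not tested.

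**Figure D2:**
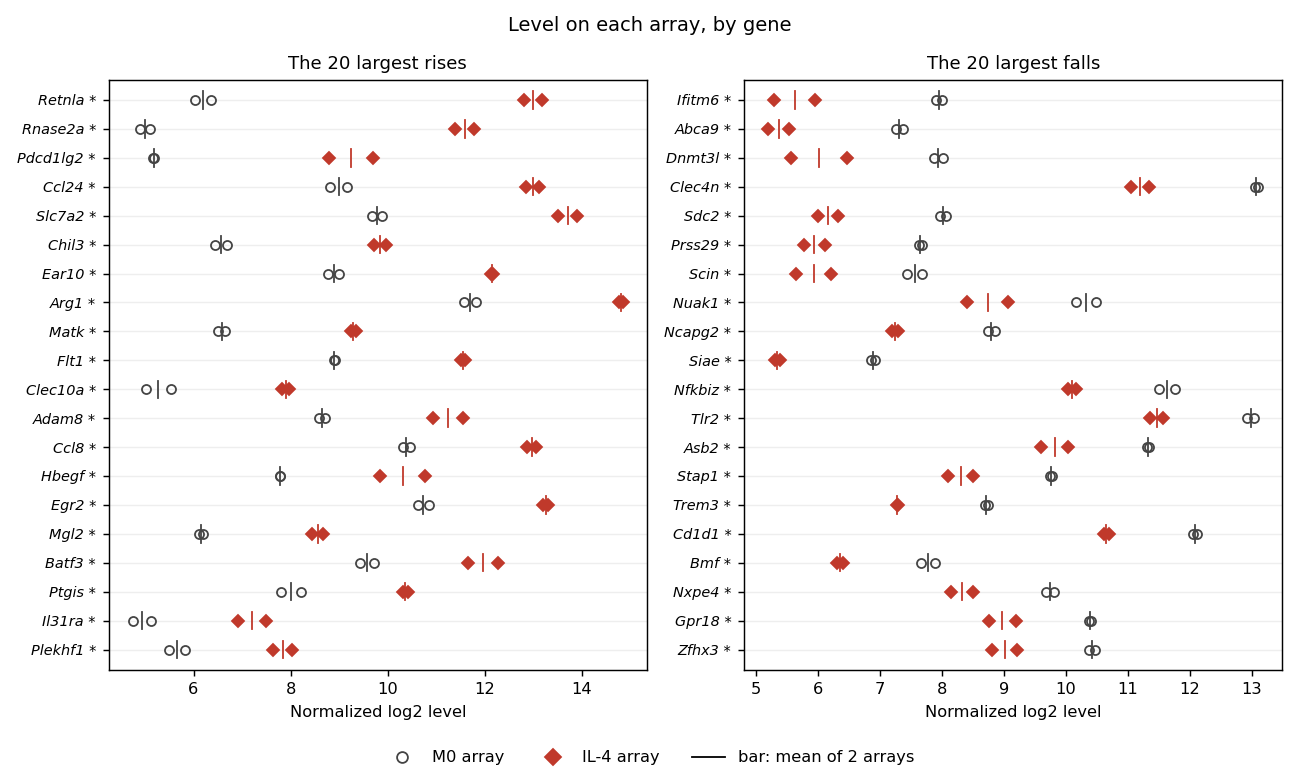
Normalized log2 level on each M0 array (open circles) and IL-4 array (filled diamonds) for the 20 genes with the largest called rise (left) and the 20 with the largest called fall (right), with bars at the mean of 2 arrays. The groups are apart for all 40 genes, and the widest gap is that of Retnla, from 6.03 and 6.36 to 13.18 and 12.81.

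The promoters of genes with large rises and large falls were inspected for the palindrome that STAT factors bind. STAT6 is known to prefer a spacer of 4 bases between TTC and GAA (TTCNNNNGAA), while other STATs prefer 3 (TTCNNNGAA). Promoters span 250 bases before to 50 after the transcription start and come from RefSeq on GRCm38.p6. Each motif equals its own reverse complement, so a match counts for both strands, and a match with 4 spacer bases is not a match with 3. Of the 20 largest rises, 14 had a promoter in the table, 3 of them with the 4-base form (Retnla, Pdcd1lg2 and Plekhf1) and 3 with the 3-base form (Chil3, Batf3 and Il31ra). Of the 20 largest falls, 13 had a promoter in the table, 2 with the 4-base form and 2 with the 3-base form. Promoters are shown only for risen genes: Retnla, the largest rise, Pdcd1lg2 and Chil3, with the match in capitals.
Retnla promoter, chr16:48842359-48842658, plus strand: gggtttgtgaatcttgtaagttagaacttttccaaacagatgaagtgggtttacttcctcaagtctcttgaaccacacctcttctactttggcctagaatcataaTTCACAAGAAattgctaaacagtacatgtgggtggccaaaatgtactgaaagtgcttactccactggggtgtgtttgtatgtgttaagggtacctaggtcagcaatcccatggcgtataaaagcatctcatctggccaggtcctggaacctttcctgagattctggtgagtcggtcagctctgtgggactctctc
Pdcd1lg2 promoter, chr19:29410669-29410968, plus strand: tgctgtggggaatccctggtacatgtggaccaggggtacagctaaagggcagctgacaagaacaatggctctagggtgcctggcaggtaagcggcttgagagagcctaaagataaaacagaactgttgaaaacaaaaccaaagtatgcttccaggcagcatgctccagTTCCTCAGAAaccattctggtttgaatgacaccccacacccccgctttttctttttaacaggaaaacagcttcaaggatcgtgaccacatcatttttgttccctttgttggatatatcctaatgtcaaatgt
Chil3 promoter, chr3:106167515-106167814, minus strand: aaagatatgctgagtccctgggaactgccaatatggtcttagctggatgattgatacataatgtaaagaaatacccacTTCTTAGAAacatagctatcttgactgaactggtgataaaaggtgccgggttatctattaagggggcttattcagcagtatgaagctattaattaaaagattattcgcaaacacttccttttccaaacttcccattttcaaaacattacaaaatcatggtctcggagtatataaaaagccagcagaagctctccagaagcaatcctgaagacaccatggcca

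Counted from the transcription start, the capitals begin at -145 in Retnla, -82 in Pdcd1lg2 and -172 in Chil3. The shares that follow include chromosome 18. The 4-base form was held by 456 of 6878 measured genes with a promoter (6.63%), by 19 of 248 genes called higher (7.66%) and by 26 of 315 called lower (8.25%). Among called rises of at least 2-fold it was held by 11 of 80 (13.8%), and among called falls of that size by 4 of 63 (6.35%). The 3-base form was held by 8.78% of measured genes, 8.06% of those called higher and 10.5% of those called lower. Among changes of at least 2-fold it was held by 6 of 80 rises (7.5%) and 11 of 63 falls (17.5%). Over all 27025 genes of the promoter table, 8.01% held the 4-base form and 9.55% the 3-base form. These shares are descriptions of letters in a window and carry no test.

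Of 11 genes of arginine and polyamine metabolism, 3 rose (27.3%, against 3.64% of all genes) and 2 fell (18.2%, against 4.68%). The median difference was -0.01. Slc7a2, which encodes the cationic amino acid transporter CAT2, was at 9.68 and 9.88 on the M0 arrays, 13.43 and 13.48 on the LPS arrays and 13.89 and 13.51 on the IL-4 arrays, a rise over M0 of 3.92 (SE 0.16, adjusted p = 0.000627). Arg1, the cytosolic arginase that splits arginine into ornithine and urea, was at 11.57 and 11.83 on the M0 arrays, 14.24 and 14.27 on the LPS arrays and 14.76 and 14.84 on the IL-4 arrays, a rise over M0 of 3.10 (SE 0.12, adjusted p = 0.000627). Both genes stood far above M0 on the IL-4 and LPS arrays alike. IL-4 minus LPS was 0.25 (adjusted p = 0.289) for Slc7a2 and 0.54 (adjusted p = 0.0247) for Arg1. Srm, spermidine synthase, rose by 0.89 (adjusted p = 0.0247). Arg2, the mitochondrial arginase, differed by -0.58 (adjusted p = 0.0311). Azin1, the antizyme inhibitor, was undetected on both IL-4 arrays and at least 1.17-fold lower with IL-4. The inducible nitric oxide synthase gene Nos2 was on the array but did not pass the detection filter.

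Chemokines were raised more often than lowered. Of 23 measured, 9 rose (39.1%, against 3.64% of all genes) and 2 fell (8.7%, against 4.68%), with a median difference of 0.14. Ccl8, which attracts monocytes, was at 10.31 and 10.45 on the M0 arrays and 13.06 and 12.87 on the IL-4 arrays, a difference of 2.58 (SE 0.11, adjusted p = 0.000732). Ccl7 was at 12.04 and 11.92 on the M0 arrays and 14.19 and 13.85 on the IL-4 arrays, a difference of 2.04 (SE 0.16, adjusted p = 0.00537). Ccl2 differed by 1.48 (adjusted p = 0.0104) and Ccl12 by 1.33 (adjusted p = 0.00814). Ccl6 and Ccl9 differed by 1.02 and 0.83. Ccl17, a ligand of CCR4 on type 2 helper T cells, had no detected signal in M0. It passed the filter only through the IL-4 arrays. With the background correction used, its IL-4 level was higher by at least 1.87-fold (adjusted p = 0.00899). Without that correction its log2 difference was 0.50. Pf4, platelet factor 4, differed by 1.43 (adjusted p = 0.00814). The fallers were Cxcl9 and Cxcl10, interferon-inducible ligands of CXCR3, at -0.93 (adjusted p = 0.00855) and -0.60 (adjusted p = 0.0248). Cxcl9 was at 11.46 and 11.50 on the M0 arrays and 10.53 and 10.57 on the IL-4 arrays, with both IL-4 arrays below both M0 arrays. Ccl3, Ccl4 and Ccl5 were among the 12 that were not called, with differences of -0.06, 0.14 and -0.09.

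Lectin and scavenger receptors moved both ways. Of 19 measured, 6 rose (31.6%, against 3.64% of all genes) and 6 fell (31.6%, against 4.68%), with a median of -0.16. The galactose-type lectins Clec10a and Mgl2 rose. Clec10a was at 5.03 and 5.53 on the M0 arrays and 7.82 and 7.97 on the IL-4 arrays. It had no detected signal in M0 and passed the filter only through the IL-4 arrays. With the background correction used, its IL-4 level was at least 4.72-fold higher (adjusted p = 0.00393). Without that correction its log2 difference was 1.10. Mgl2 was at 6.11 and 6.19 on the M0 arrays and 8.66 and 8.45 on the IL-4 arrays, a difference of 2.41 (SE 0.19, adjusted p = 0.00537). Mrc1, the mannose receptor, was at 12.35 and 12.41 on the M0 arrays, 10.48 and 10.48 on the LPS arrays and 13.77 and 13.63 on the IL-4 arrays, a rise over M0 of 1.32 (SE 0.10, adjusted p = 0.00499). Clec7a (dectin-1, a receptor for beta-glucan) differed by 1.09 (adjusted p = 0.0173), and its 2 other probes by 1.16 and 1.25. Cd163, the haptoglobin-haemoglobin scavenger receptor, was detected on 1 of the 2 M0 arrays and differed by 1.89 (adjusted p = 0.0104). Trem2 differed by 0.63 (adjusted p = 0.0245).

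The receptors that fell included the group of C-type lectins that sense fungal and mycobacterial glycolipids and signal through the Fc receptor gamma chain. Clec4n (dectin-2) was at 13.10 and 13.04 on the M0 arrays and 11.05 and 11.33 on the IL-4 arrays, a difference of -1.88 (SE 0.12, adjusted p = 0.00353). Clec4d differed by -1.35 (adjusted p = 0.0139) and Clec4e (Mincle) by -1.09 (adjusted p = 0.0104). Clec5a differed by -0.71 (adjusted p = 0.0203), Stab1 by -0.64 (adjusted p = 0.0286) and Clec4a1 by -0.50 (adjusted p = 0.0416). Clec4e stood at 12.85 and 12.88 on the LPS arrays, above both other groups. Marco, Timd4 and Mertk were not called, with differences of -0.16, 0.15 and -0.40.

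**Figure D3:**
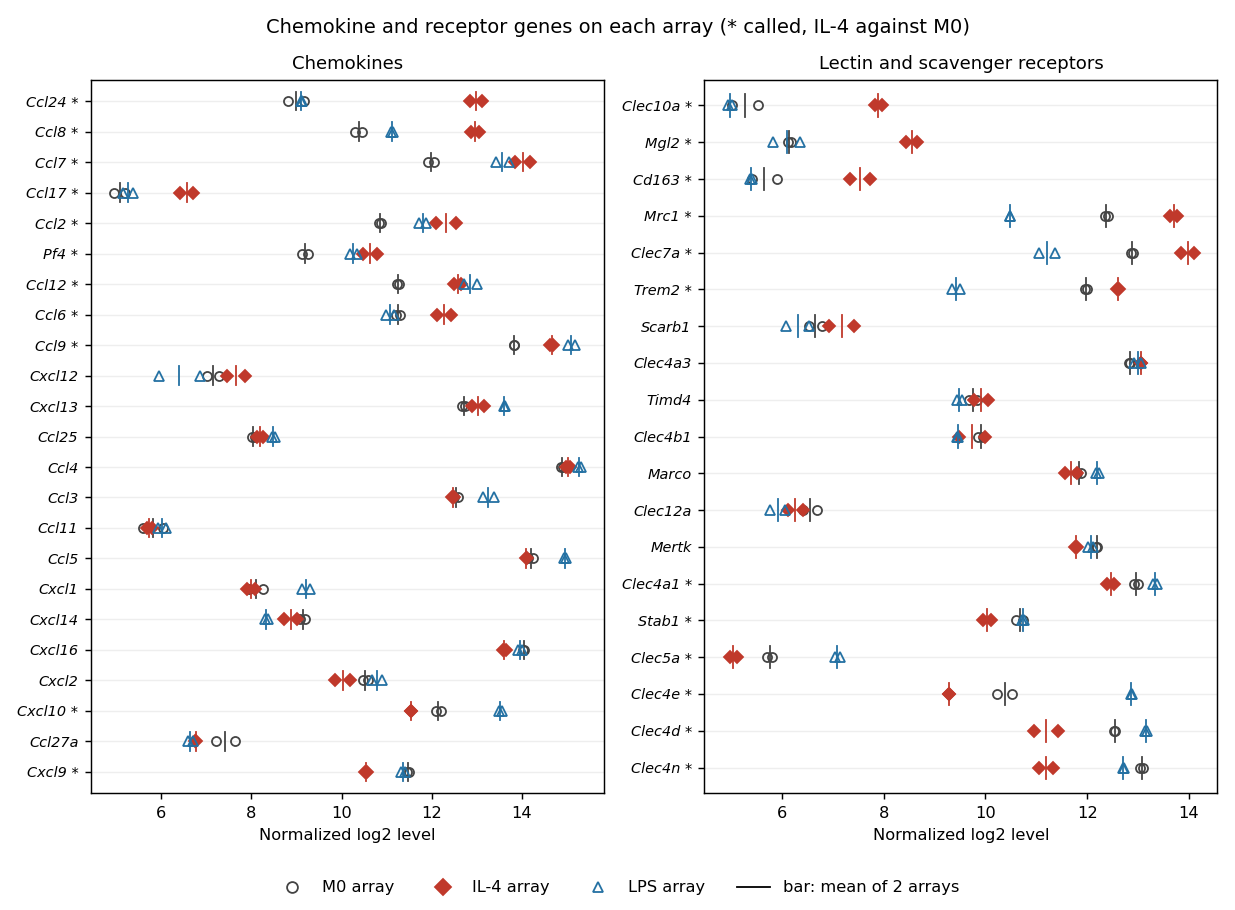
Normalized log2 level on each M0 (open circles), IL-4 (filled diamonds) and LPS array (open triangles) for the 23 chemokine genes (left) and 19 lectin and scavenger receptor genes (right) tested, ordered by IL-4 minus M0. Ccl24, Clec10a and Mgl2 stand apart on the IL-4 arrays alone, while Ccl7 and Ccl12 are high on IL-4 and LPS arrays.

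Ligands for T cells and antigen presentation changed at a few genes. Pdcd1lg2, which encodes PD-L2, a ligand of the inhibitory receptor PD-1, was at 5.16 and 5.19 on the M0 arrays and 9.70 and 8.79 on the IL-4 arrays. It had no detected signal in M0 and passed the filter only through the IL-4 arrays. With the background correction used, its IL-4 level was higher by at least 12-fold (adjusted p = 0.00455). Without that correction its log2 difference was 2.11. It was higher on both IL-4 arrays. Lgals9 (galectin-9) differed by 0.80 (adjusted p = 0.0493), and its other probe was not called at 0.60. Cd276 (B7-H3) fell, at -1.02 (adjusted p = 0.0145). These were the 3 called of 12 checkpoint and costimulatory genes, 2 higher (16.7%, against 3.64% of all genes) and 1 lower (8.33%, against 4.68%). Of 10 MHC class II presentation genes, 2 rose (20%, against 3.64% of all genes). They were H2-Aa, at 0.66 (adjusted p = 0.0291), and Ifi30, a lysosomal thiol reductase, at 0.62 (adjusted p = 0.0332). Cd1d1, which presents lipid antigens to NKT cells, was at 12.11 and 12.04 on the M0 arrays and 10.69 and 10.62 on the IL-4 arrays, a fall with a difference of -1.42 (SE 0.10, adjusted p = 0.00452).

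Among the components of IL-4 signalling, 1 of 12 measured genes rose (8.33%, against 3.64% of all genes) and 2 fell (16.7%, against 4.68%). Il4ra and Il2rg were not analysed here. Jak2 rose, at 0.63 (adjusted p = 0.0245). Il13ra1, the IL-13 receptor alpha 1 chain, was at 10.91 and 10.81 on the M0 arrays and 9.95 and 10.11 on the IL-4 arrays, a fall with a difference of -0.83 (SE 0.11, adjusted p = 0.0143). Irs2, the adaptor that links the IL-4 receptor to PI3 kinase, differed by -1.26 (adjusted p = 0.0139). Stat6 differed by -0.38 (adjusted p = 0.123) and Jak1, Jak3 and Tyk2 by -0.07, 0.07 and -0.08, none of them called. Socs1, a feedback inhibitor of JAK kinases, was at 6.27 and 5.31 on the M0 arrays and 6.93 and 6.70 on the IL-4 arrays, and its difference of 1.02 (adjusted p = 0.101) was not called. Cish, Socs2, Socs3 and the phosphatase gene Ptpn6 were not called either, at 0.00, 0.12, -0.24 and -0.24.

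Transcription factors were raised more often than lowered, with 9 of 33 higher (27.3%, against 3.64% of all genes) and 1 lower (3.03%, against 4.68%). Their median was 0.12. Egr2, a zinc finger factor of alternative activation, was at 10.62 and 10.85 on the M0 arrays, 9.00 and 8.90 on the LPS arrays and 13.20 and 13.30 on the IL-4 arrays, a rise over M0 of 2.52 (SE 0.12, adjusted p = 0.0011). Batf3 was at 9.42 and 9.73 on the M0 arrays and 12.26 and 11.66 on the IL-4 arrays, a difference of 2.39 (SE 0.22, adjusted p = 0.00763), and Irf4 was at 7.67 and 7.83 on the M0 arrays and 9.78 and 9.45 on the IL-4 arrays, a difference of 1.87 (SE 0.15, adjusted p = 0.0056). Klf4, a Krüppel-like factor known to act with STAT6, was at 7.89 and 7.60 on the M0 arrays and 9.62 and 9.22 on the IL-4 arrays, a difference of 1.67 (SE 0.20, adjusted p = 0.0116), and its 2 other probes rose by 1.61 and 1.57. Myc had no detected signal in M0, so its background-corrected IL-4 level was higher by at least 2.43-fold. Without that correction its log2 difference was 0.54. Id1, Atf3, Jun and Bhlhe40 differed by 1.25, 1.04, 0.60 and 0.49. Spic, a factor of iron-recycling macrophages, was the one that fell, at -1.15 (adjusted p = 0.00847). Rora, the nuclear receptor ROR-alpha, was at 6.46 and 6.40 on the M0 arrays and 5.77 and 5.99 on the IL-4 arrays. Its difference of -0.55 (adjusted p = 0.057) was not called. The adjusted p was 0.0282 with all 12 arrays in the fit, a setting that called 2616 probes against 970 in the main fit.

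Batf3, Irf4, Clec10a, Mgl2, Itgax, Ccl17 and Pdcd1lg2 are also known from dendritic cells. Itgax, the integrin CD11c, had no detected signal in M0, so its IL-4 level was higher by at least 1.76-fold. Of 13 dendritic cell and monocyte markers 8 were undetected on all 4 arrays. Of the 5 tested, Batf3 rose (20%, against 3.64% of all genes). Siglech and Treml4 fell (40%, against 4.68%), at -0.56 and -1.33. The median difference of the 5 was -0.31. Their summed level was 3526 and 3627 in M0 and 6117 and 4673 with IL-4. This sum includes Batf3, the only one of them called higher. The part of dendritic cells in these rises was not tested.

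Inflammatory genes and microbial sensors were lowered at 5 of 26 members (19.2%, against 4.68% of all genes) and raised at 3 (11.5%, against 3.64%). Their median was -0.14. Tlr2, the receptor for bacterial lipopeptides, was at 13.03 and 12.92 on the M0 arrays and 11.36 and 11.57 on the IL-4 arrays, a difference of -1.51 (SE 0.12, adjusted p = 0.00519). Cd14, the co-receptor for lipopolysaccharide, was at 13.24 and 13.24 on the M0 arrays and 11.89 and 12.02 on the IL-4 arrays, a difference of -1.29 (SE 0.10, adjusted p = 0.00537). Il1b, Il18 and Saa3 differed by -0.91 (adjusted p = 0.0104), -0.79 (adjusted p = 0.0438) and -0.61 (adjusted p = 0.0266). The IL-4 arrays lay below the M0 arrays and the LPS arrays for these 5 genes. Tnf and Tlr4 were not called, with differences of -0.36 and 0.31. Il10 was at 7.51 and 7.25 on the M0 arrays, 9.15 and 9.16 on the LPS arrays and 8.25 and 8.42 on the IL-4 arrays, a rise over M0 of 0.96 (SE 0.13, adjusted p = 0.0155), and Tlr1 and Tlr8 rose by 0.91 and 1.13. Nfkbiz, which encodes a nuclear IkB protein induced by TLR signals, was at 11.75 and 11.49 on the M0 arrays and 10.04 and 10.17 on the IL-4 arrays, a fall with a difference of -1.52 (SE 0.14, adjusted p = 0.00763).

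Of 31 interferon-stimulated genes, 1 rose (3.23%, against 3.64% of all genes) and 1 fell (3.23%, against 4.68%), with a median of 0.11. Ifitm6 was the largest fall of all genes, at 7.91 and 8.00 on the M0 arrays and 5.29 and 5.95 on the IL-4 arrays, a difference of -2.33 (SE 0.22, adjusted p = 0.0079), and it was detected on 1 of the 2 IL-4 arrays. Ifih1, the RNA sensor MDA5, had no detected signal in M0, so its IL-4 level was higher by at least 1.43-fold.

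**Figure D4:**
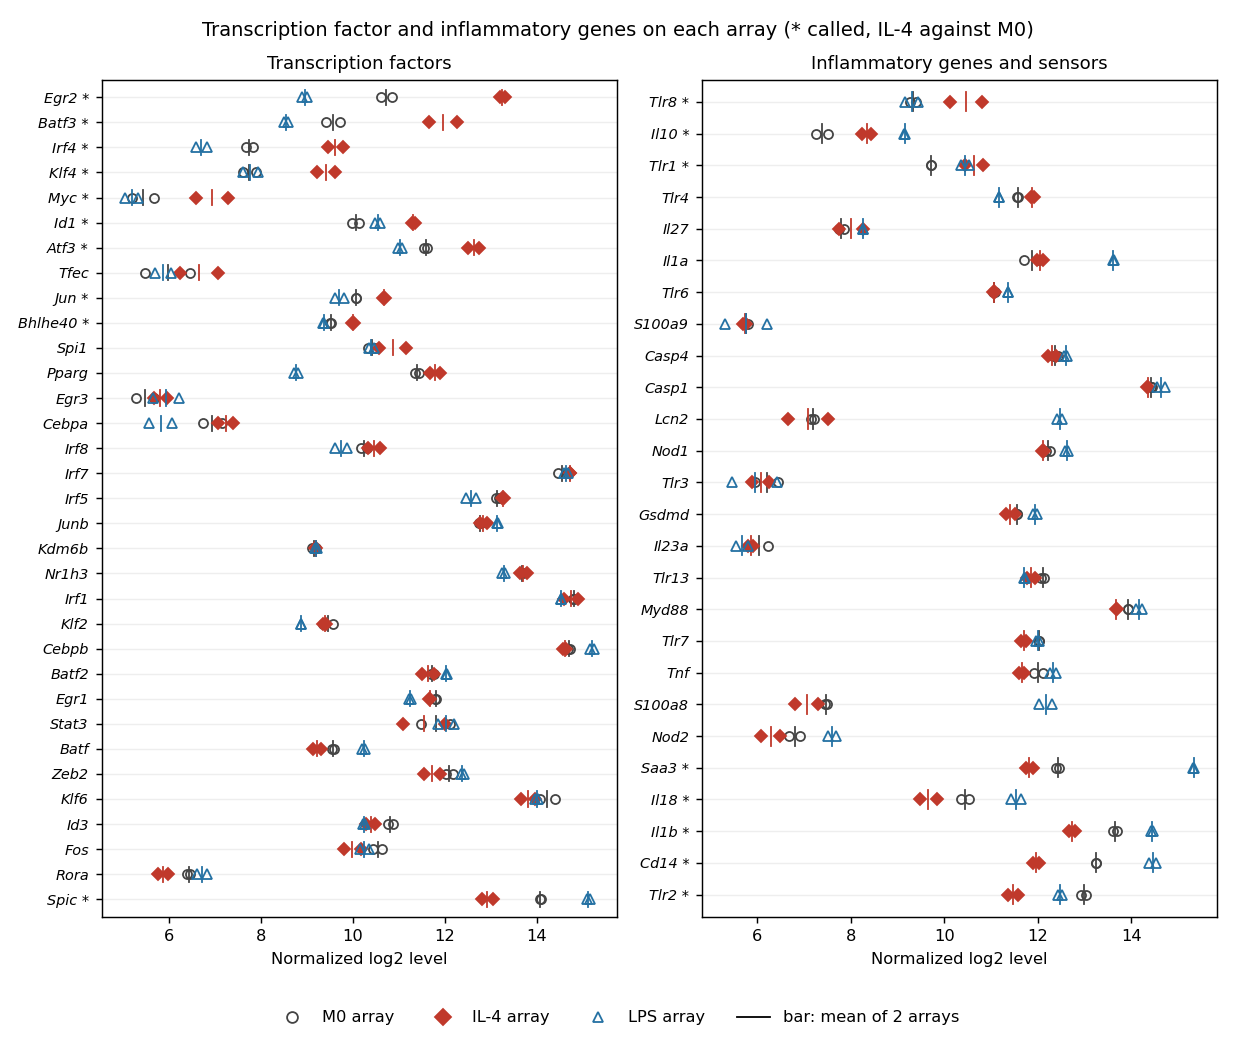
Normalized log2 level on each M0 (open circles), IL-4 (filled diamonds) and LPS array (open triangles) for the 33 transcription factor genes (left) and 26 inflammatory genes and sensors (right) tested, ordered by IL-4 minus M0. Egr2, Batf3, Irf4 and Klf4 are highest on the IL-4 arrays, and Tlr2, Cd14 and Il1b are lowest there.

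Growth factors, angiogenic receptors and matrix genes changed at 14 of 31 members, with a median of 0.17. Of the 31, 9 were higher (29%, against 3.64% of all genes) and 5 lower (16.1%, against 4.68%). Flt1, the VEGF receptor 1, was at 8.89 and 8.91 on the M0 arrays, 7.33 and 7.40 on the LPS arrays and 11.51 and 11.60 on the IL-4 arrays, a rise over M0 of 2.65 (SE 0.09, adjusted p = 0.000616). Adam8, a membrane metalloprotease, was at 8.58 and 8.72 on the M0 arrays and 11.54 and 10.93 on the IL-4 arrays, a difference of 2.59 (SE 0.20, adjusted p = 0.00537), and its other probe rose by 2.41. Hbegf, a growth factor of the EGF family, was at 7.77 and 7.78 on the M0 arrays and 10.76 and 9.85 on the IL-4 arrays, a difference of 2.53 (SE 0.29, adjusted p = 0.0106). Igf1 was at 13.59 and 13.63 on the M0 arrays, 11.11 and 10.98 on the LPS arrays and 14.69 and 14.63 on the IL-4 arrays, a rise over M0 of 1.05 (SE 0.10, adjusted p = 0.00786). Pgf, placental growth factor, was detected on 1 of the 2 M0 arrays and differed by 1.63 (adjusted p = 0.0079). Sdc4 and the collagenase gene Mmp13 differed by 1.48 (adjusted p = 0.0106) and 1.27 (adjusted p = 0.00925). Mmp13 had 2 other probes, of which 1 rose by 2.37 and 1 was not called at 0.36. The fallers were Sdc2 at -1.86 (adjusted p = 0.0046), Mmp2 at -1.40 (adjusted p = 0.0106), Mmp14 at -1.19 (adjusted p = 0.0187), Tgfbr1 at -0.93 (adjusted p = 0.0104) and Tgfbr2 at -0.45 (adjusted p = 0.0461). The syndecans Sdc2 and Sdc4, heparan sulphate proteoglycans of the cell surface, thus moved in opposite directions.

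Flt1, Mrc1 and Stab2 are also known from sinusoidal endothelium. Of 17 endothelial markers tested, 4 rose (23.5%, against 3.64% of all genes), 1 fell (5.88%, against 4.68%) and 12 were not called. The median difference was 0.18. Dnase1l3 differed by 1.25 (adjusted p = 0.0108), Pecam1 by 0.82 (adjusted p = 0.0172), Stab2 by 0.58 (adjusted p = 0.0358) and Cdh5 by 0.54 (adjusted p = 0.0438), and Clec4g by -0.83 (adjusted p = 0.0453). Their summed level was 9516 and 9326 in M0 and 13645 and 13492 with IL-4, and the groups did not overlap. The part of endothelial cells in the rises of Flt1 and Mrc1 was not tested.

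Enzymes of lipid mediators were split. Of 14 measured, 3 rose (21.4%, against 3.64% of all genes) and 2 fell (14.3%, against 4.68%). Ptgis, prostacyclin synthase, was at 7.80 and 8.21 on the M0 arrays and 10.41 and 10.31 on the IL-4 arrays, a difference of 2.36 (SE 0.15, adjusted p = 0.00353). Tbxas1, thromboxane synthase, differed by 0.98 (adjusted p = 0.0139), and Alox12 by 0.88 (adjusted p = 0.0371). Alox5ap, the protein that presents arachidonate to 5-lipoxygenase, was at 12.64 and 12.61 on the M0 arrays and 11.45 and 11.70 on the IL-4 arrays, a difference of -1.05 (SE 0.12, adjusted p = 0.0109). Ptges, the inducible prostaglandin E synthase, was undetected on both IL-4 arrays and at least 1.71-fold lower with the background correction used. Without that correction its log2 difference was -0.28. On the LPS arrays Ptges stood at 10.94 and 11.13. Of 13 receptors for chemoattractants and lipid mediators, 2 rose (15.4%, against 3.64% of all genes) and 3 fell (23.1%, against 4.68%). Ltb4r1, the leukotriene B4 receptor, differed by 1.66 (adjusted p = 0.00623), and P2ry6 by 0.52 (adjusted p = 0.0393). Fpr2, a formyl peptide receptor, Cxcr4 and the ADP receptor gene P2ry13 differed by -1.26 (adjusted p = 0.0104), -1.15 (adjusted p = 0.0116) and -1.38 (adjusted p = 0.00505).

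None of 19 genes of PPAR-gamma, lipid uptake and fatty acid oxidation was called in limma, and Pparg itself differed by 0.40 (adjusted p = 0.0956). At an unadjusted p under 0.05, 2 of the 19 passed, both higher, while 28.4% of all genes passed. Of 21 serine, one-carbon and ATF4-linked genes, 3 rose (14.3%, against 3.64% of all genes) and 0 fell. An unadjusted p under 0.05 was reached by 11 of the 21, 7 higher and 4 lower, and by 28.4% of all genes. Psat1, phosphoserine aminotransferase, was at 10.40 and 10.42 on the M0 arrays and 12.26 and 12.02 on the IL-4 arrays, a difference of 1.73 (SE 0.12, adjusted p = 0.00393), and Gpt2 and Chac1 differed by 0.85 and 0.67. Of 18 glycolysis and hypoxia genes, 2 rose (11.1%, against 3.64% of all genes), Pfkp by 0.91 and Ldha by 0.52. Of 15 genes of cholesterol and fatty acid synthesis, 0 rose and 1 fell (6.67%, against 4.68% of all genes), Msmo1 at -0.50 (adjusted p = 0.0437). Of 14 NRF2 targets, 0 rose and 3 fell (21.4%, against 4.68% of all genes), with a median of -0.32. The 3 called lower were Cat, Osgin1 and Gstm1, at -0.79, -0.68 and -0.56. An unadjusted p under 0.05 was reached by 8 of the 14, 1 higher and 7 lower, and by 28.4% of all genes.

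Of 17 iron and heme genes, 2 rose (11.8%, against 3.64% of all genes) and 3 fell (17.6%, against 4.68%). Tfrc, the transferrin receptor, and Hfe rose by 0.73 and 0.82, while the metal transporter gene Slc11a2 and the heme transporter gene Slc48a1 differed by -0.58 and -0.51, the third being Spic. Slc40a1, the iron exporter ferroportin, was at 15.47 and 15.45 on the M0 arrays and 14.65 and 14.97 on the IL-4 arrays, a difference of -0.65 (adjusted p = 0.0522) that was not called. Of 22 lysosomal genes, 2 rose (9.09%, against 3.64% of all genes), Ctsl by 0.99 and Ctsz by 0.65. Of 25 cell cycle and replication genes, 4 rose (16%, against 3.64% of all genes) and 0 fell. Cdkn1a, the cell cycle inhibitor p21, differed by 1.28 (adjusted p = 0.0225), and Ccnd1, cyclin D1, by 0.85 (adjusted p = 0.0139). The replication helicase subunits Mcm6 and Mcm5 differed by 0.78 and 0.45.

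Receptor and cytokine genes outside these groups included Il31ra, a subunit of the IL-31 receptor, at 5.13 and 4.75 on the M0 arrays and 7.49 and 6.91 on the IL-4 arrays. It had no detected signal in M0 and passed the filter only through the IL-4 arrays. With the background correction used, its IL-4 level was higher by at least 2.91-fold (adjusted p = 0.00848). Without that correction its log2 difference was 0.86. Il27ra rose, at 0.82 (adjusted p = 0.0104), and Tnfsf13b, the B cell survival factor BAFF, fell, at -1.26 (adjusted p = 0.0179). These were the 3 called of 23 colony-stimulating factors, cytokine receptors and TNF family members. Of the 23, 2 rose (8.7%, against 3.64% of all genes) and 1 fell (4.35%, against 4.68%). Of 16 adhesion and fusion genes Itgax alone was called, as higher (6.25%, against 3.64% of all genes). Of 16 complement and Fc receptor genes, 1 rose (6.25%, against 3.64% of all genes) and 1 fell (6.25%, against 4.68%). Fcgr2b, the inhibitory Fc receptor, rose at 0.70 (adjusted p = 0.0216) and C4b fell at -0.52 (adjusted p = 0.0397). The 2 other Fcgr2b probes were not called, at 0.58 and -0.13. Matk, a kinase that restrains Src family kinases, was at 6.64 and 6.51 on the M0 arrays and 9.35 and 9.24 on the IL-4 arrays, a difference of 2.72 (SE 0.11, adjusted p = 0.000697), and its other probe rose by 2.71. Plekhf1, an endosomal adaptor, was detected on 1 of the 2 M0 arrays and differed by 2.18 (adjusted p = 0.00537). Atp6v0a1, a subunit of the proton pump, and Niban2 were the remaining abundant genes with a rise of at least 1, at 1.05 and 1.05.

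**Figure D5:**
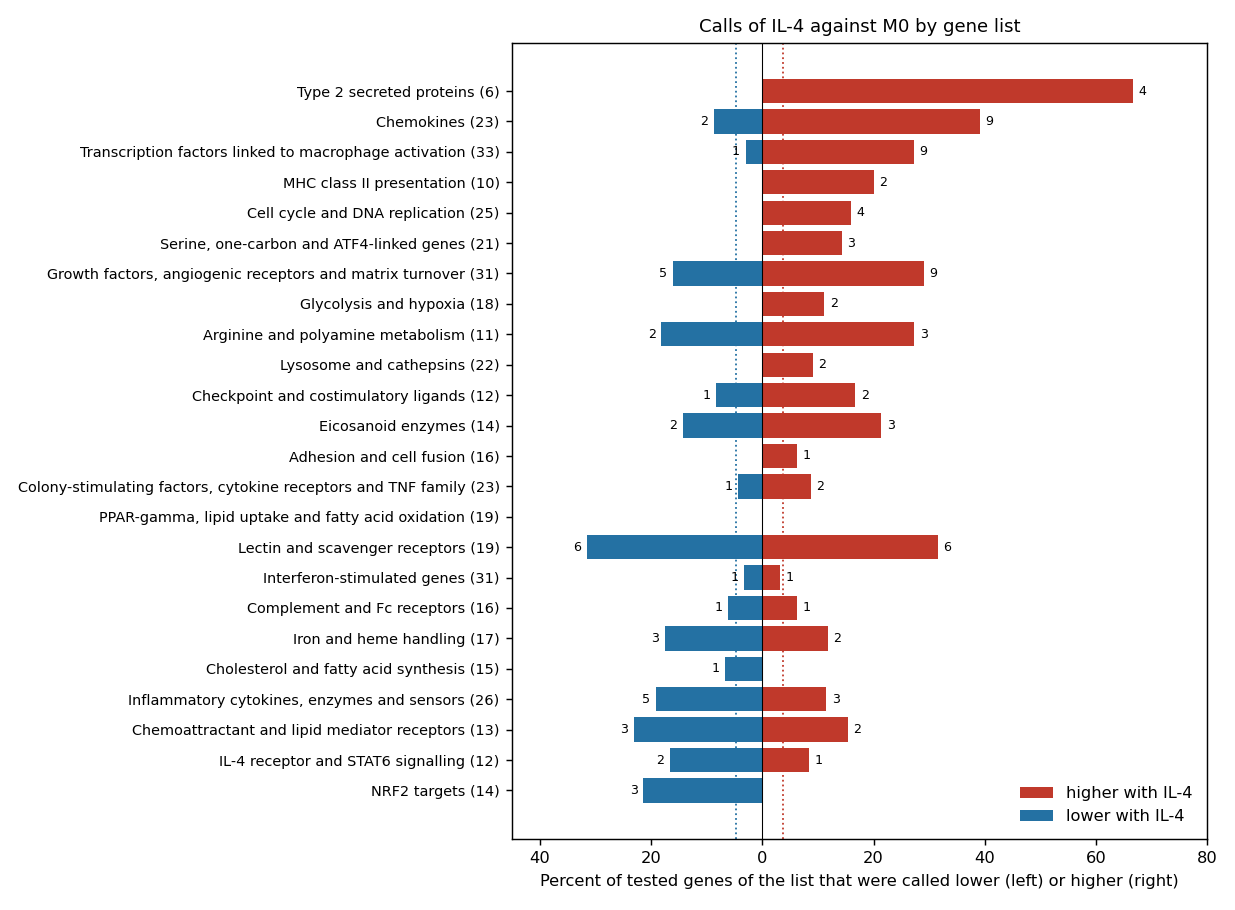
Percent of the tested genes of each of 24 lists called higher (right, red) or lower (left, blue) with IL-4 against M0, with the count at the bar's end, the number tested in brackets and dotted lines at the share over all genes (3.64% higher, 4.68% lower). Type 2 secreted proteins (4 of 6) and chemokines (9 of 23) have the tallest shares of rises, and lectin and scavenger receptors (6 of 19) the largest share of falls.

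Several of the largest falls lay outside the immune lists. Abca9, an ABC transporter, was undetected on both IL-4 arrays and passed the filter only through the M0 arrays. With the background correction used, it was at least 3.24-fold lower (adjusted p = 0.00537), but its other probe differed by 0.01. Without that correction the log2 difference of the first probe was -0.73. Dnmt3l, a non-catalytic partner of the de novo DNA methyltransferases, was at 8.01 and 7.87 on the M0 arrays and 5.57 and 6.47 on the IL-4 arrays, a difference of -1.92 (SE 0.28, adjusted p = 0.0203). It was detected on 1 of the 2 IL-4 arrays, and its other probe, undetected on both, was at least 4.29-fold lower. Siae, a sialic acid esterase, was undetected on both IL-4 arrays and at least 2.42-fold lower with the background correction used. Without that correction its log2 difference was -0.53. Sdc2 was at 7.96 and 8.07 on the M0 arrays and 6.00 and 6.32 on the IL-4 arrays. The actin-severing gene Scin, the kinase gene Nuak1 and the condensin II subunit gene Ncapg2 differed by -1.63 (adjusted p = 0.0141), -1.58 (adjusted p = 0.0209) and -1.55 (adjusted p = 0.00393). Prss29, a serine protease, differed by -1.70 (adjusted p = 0.00537), with 1 of its 2 other probes called. Trem3, a receptor of mouse myeloid cells, was at 8.75 and 8.69 on the M0 arrays, 11.95 and 12.03 on the LPS arrays and 7.27 and 7.29 on the IL-4 arrays, a difference from M0 of -1.44 (SE 0.09, adjusted p = 0.00353). Its LPS arrays were the highest and its IL-4 arrays the lowest. Asb2, Stap1, Bmf, Nxpe4, Gpr18 and Zfhx3 differed by -1.50, -1.46, -1.42, -1.42, -1.41 and -1.41.

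Of 10 T and NK cell markers tested, 0 rose, 4 fell (40%, against 4.68% of all genes) and 6 were not called, with a median of -0.52. Xcl1, a chemokine of NK and CD8 T cells, was at 9.95 and 10.15 on the M0 arrays and 8.76 and 8.97 on the IL-4 arrays, a difference of -1.19 (SE 0.13, adjusted p = 0.0104). Cd2, Prf1 (perforin) and Cd3g differed by -0.83 (adjusted p = 0.0187), -0.72 (adjusted p = 0.0238) and -0.65 (adjusted p = 0.036). The summed level of the 10 markers was 6192 and 6691 in M0 and 4469 and 4945 with IL-4, with no overlap. Of 21 macrophage markers tested, 3 rose (14.3%, against 3.64% of all genes) and 2 fell (9.52%, against 4.68%). Lyz2 (lysozyme) fell, at -0.81 (adjusted p = 0.0124), as did Spic, while Cd163, Clec1b and Cdh5 rose, the last also an endothelial marker. The 2 other Lyz2 probes gave -0.62 and -0.87 and were not called, and Lyz2 has a near-identical copy in Lyz1. Of 10 hepatocyte markers tested, limma called 0, and 0 had an unadjusted p under 0.05. It also called 0 of 3 B cell, 6 neutrophil and 3 eosinophil, basophil and mast cell markers, of which 1, 1 and 2 had an unadjusted p under 0.05. Of 4 stellate cell markers, Acta2 was called lower (25%, against 4.68% of all genes), at -0.56. Its 3 other probes were not called and gave 0.20, 0.20 and -0.45.

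The levels with IL-4 were also tested directly against those with LPS in the same fit. The M0 arrays do not enter this difference, but they share its variance estimate and the detection filter. This test called 2238 of 8349 genes (26.8%), 1218 higher with IL-4 (14.6%) and 1020 lower (12.2%). Of the 304 genes called higher with IL-4 than in M0, 204 (67.1%) were above LPS as well. A further 18 were below it and 82 did not pass in either direction. Of the 391 genes called lower with IL-4 than in M0, 213 (54.5%) were below LPS, 31 above it and 147 did not pass. Retnla differed from LPS by 7.42 (adjusted p = 0.000159), Flt1 by 4.19 (adjusted p = 5.81e-05), Egr2 by 4.30 (adjusted p = 9.28e-05), Igf1 by 3.62 (adjusted p = 9.28e-05) and Mrc1 by 3.22 (adjusted p = 9.95e-05). Among rises that were not separated from LPS were Slc7a2, Ccl7 at 0.45 (adjusted p = 0.0961), Pf4 at 0.36 (adjusted p = 0.109) and Ltb4r1 at -0.10 (adjusted p = 0.636). Il10 was called higher than M0 and lower than LPS, at -0.82 (adjusted p = 0.00825). Sdc2 and Cxcr4 were called lower than M0 and higher than LPS, at 1.13 (adjusted p = 0.00362) and 0.88 (adjusted p = 0.00781). The IL-4 level is part of both comparisons, so the shares above LPS are not independent of the calls over M0.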

How the data were processed

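RNA of 12 Kupffer cell samples was hybridised to Illumina mouse bead arrays, 2 per group, and the 6 arrays of M0, LPS and IL-4 were used. The bead signals are intensity values that the authors deposited without normalization, made with GenomeStudio 2011.1 per the submitters' processing notes. A detection p-value per probe and array was deposited beside each signal. The authors also deposited log2 values, quantile-normalized within sets of 6 arrays as the values show, which served as an alternative.

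Signals were background-corrected in limma 3.58.1 (R 4.3.3) by normexp with negative controls inferred from the detection p-values and an offset of 16, then quantile-normalized and log2-transformed. Probes with detection p under 0.05 on at least 2 of the 4 M0 and IL-4 arrays were tested. The fit had 1 mean per group, 3 residual degrees of freedom, moderated variances and Benjamini-Hochberg adjustment over all 11930 probes. The threshold was an adjusted p of 0.05. Median signals were 178 to 191 on the 6 arrays. The script was tested on simulated data.

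Of 25697 probes, 23978 had 1 gene symbol, 0 had several and 1719 had none, and 23962 were matched to RefSeq genes by gene identifier. A gene is shown by its tested probe of highest mean over the 4 arrays, and 2126 genes had more than 1. For a probe undetected on both arrays of a group, "at least N-fold" sets the other group's mean against a floor. Per array, that floor is the higher of the lowest detected level and the probe's own level. These bounds hold only for the background correction used. Genes were named by rule: the 20 largest called rises and falls, the 6 largest called members of each list (or the 2 largest members where fewer than 2 were called), all measured members of the IL-4 receptor list, Retnla, Ccl24, Chil3, Rora and Klf4, the 10 called genes of highest level with IL-4 and a difference of at least 1, and markers detected on all 4 arrays. Other list members are named as examples chosen after their values were seen. Members and lists were chosen with earlier results of these data known. Alternatives covered background, offset, normalization, arrays in the fit, filters, probes per gene, variance model, array weights, a replicate block and leaving out each array.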

Additional observations from a re-analysis of the deposited data

How the results depend on the processing

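Against 970 called probes (462 higher, 508 lower, 269 of at least 2-fold), other settings gave more or fewer calls. Without background correction there were 1858 calls (894 higher, 964 lower, 110 of at least 2-fold), and with the authors' processed values 1858 (894, 964 and 111). All 12 arrays in the fit gave 2616 (1236 higher, 1380 lower), and a variance trend 1940 (924 and 1016). Only the 4 arrays compared gave 335 (185 and 150), and no detection filter 502 (264 and 238). The causes were not tested, except that fewer arrays leave fewer degrees of freedom.

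Leaving out 1 array gave 18 to 1540 calls, 18 to 746 higher, 0 to 794 lower and 18 to 438 of at least 2-fold. The lowest counts came from leaving out M0 replicate 1, the highest from leaving out IL-4 replicate 2. Without M0 replicate 1, where limma called 0 lower, 1113 lower probes had an unadjusted p under 0.05. Without LPS replicate 1 or 2 there were 347 and 348 calls, without IL-4 replicate 1 291, and without M0 replicate 2 22. A lone array was assumed to vary like the other groups. IL-4 minus LPS called 3128 probes, and 1351 to 3278 when 1 array was left out, the lowest without LPS replicate 1 and 1379 without LPS replicate 2. Apart from the replicate block below, the other alternatives kept the total within 1.5 times. Of the named genes, the 122 called ones kept their sign in every alternative. Of the 70 that were not called, 22 changed sign in at least 1 alternative, 21 of them when an array was left out, and limma called 0 of these turned values. Without background correction, as with the authors' processed values, 36 of the 122 differences were smaller by more than 1.5 times, and 6 were with an offset of 50.

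The labels do not state if a shared replicate number pairs arrays across groups. Over the tested probes, replicate deviations correlated at 0.02 between M0 and IL-4, 0.06 between M0 and LPS and 0.12 between IL-4 and LPS. Most probes vary little between replicates, so these correlations cannot decide pairing. With the number as a replicate block there were 573 calls (293 higher, 280 lower).

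Of the list medians in the report, that of lectin and scavenger receptors was 0.09 without IL-4 replicate 1 and that of arginine and polyamine genes 0.11 over probes detected on all 4 arrays, both with the sign turned.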

Other observations

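Some genes differed widely between replicate arrays. The 2 M0 arrays were at least 1 log2 unit apart for 26 genes and the 2 IL-4 arrays for 62, and for 3 genes both pairs were apart in the same direction. Hmox1, the heme-degrading enzyme heme oxygenase 1, was at 11.63 and 8.33 in M0, 12.04 and 10.19 with IL-4 and 14.13 and 12.54 with LPS, with replicate 1 the higher in each group. Its IL-4 minus M0 difference of 1.14 had an adjusted p of 0.579. Csnk1g1, a casein kinase 1 isoform, was at 7.10 and 9.05 in M0 and 6.54 and 8.03 with IL-4. Slc43a2, an amino acid transporter gene, was at 8.31 and 9.35 in M0 and 6.35 and 7.70 with IL-4, with an adjusted p of 0.0951 for its difference of -1.81.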
